A study of Rattus norvegicus with 30 samples.

Results

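The voltage-gated sodium and calcium channel genes were followed in rat hippocampus from 1 to 240 h after kainate. All probe sets with a single gene symbol in the platform annotation were searched for symbols that start with Scn or Cacn, followed by a digit or by a, b or g. This gave 43 probe sets for 24 genes, out of 8740 probe sets and 4736 genes on the array. The genes comprise 10 for sodium and 14 for calcium channels, and 17 of the 24 encode a pore-forming subunit while 7 encode an accessory subunit. This search reads only gene names, while the probe set that stands for a gene was picked by its signal. The channel genes were chosen with earlier results of these data known.

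Rats had received kainate, an agonist of glutamate receptors that provokes seizures, or phosphate-buffered saline (PBS), and were killed at 1, 6, 24, 72 or 240 h. Total RNA of the hippocampus was hybridised to 30 Affymetrix arrays, 3 in each of 10 groups. Strain, age and dose are not given in the labels used here, and the labels do not state that replicate arrays come from separate animals. The p-values therefore measure the spread between these arrays, which may be in part technical.

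Voltage-gated sodium channels open on depolarization and carry the rising phase of the action potential. Voltage-gated calcium channels let calcium in during depolarization, which triggers transmitter release at terminals and signals to kinases and to the nucleus in the cell body. A large alpha subunit forms the pore of either channel and sets its voltage dependence, and smaller accessory subunits (beta, gamma and alpha2delta) control how many channels reach the membrane and how they gate. Mutations of several of these genes cause inherited epilepsies, and several antiseizure drugs act on these channels.

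A probe set was tested when its signal exceeded 35.2 on at least 3 of the 30 arrays. By this filter 32 of the 43 probe sets and 21 of the 24 genes were tested, 14 with pore-forming and 7 with accessory subunits. Below it lay Cacna1s, the pore of the skeletal muscle calcium channel, and Scn10a and Scn11a, sodium channels of peripheral sensory neurons. The filter signal was exceeded on all 30 arrays for 10 genes and on at least 22 arrays for 18. It was exceeded on 6 arrays for Scn9a, on 14 for Cacna1h and on 18 for Scn2b, and for 0 of the 21 genes by the arrays of 1 group alone. For 11 genes more than 1 probe set was present, and the probe set with the highest mean log2 signal stood for the gene.

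Replicate arrays of a group had a median r of 0.947, and no 2 arrays fell below an r of 0.885. A first principal component holding 16.21% of the variance set the arrays of 6 and 72 h apart from those of 1, 24 and 240 h, in both treatments. Each kainate group was compared only with the PBS group of its own time. Changes are given as log2 kainate minus PBS with the standard error (SE), group signals as mean ± SD with n = 3 arrays, and adjusted p-values come from limma with Benjamini-Hochberg adjustment over all 6303 tested probe sets, with a threshold of 0.05.

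At 24 h 4 of the 21 genes were lower after kainate and 0 were higher. The 4 are Cacna1g, Cacna1b, Cacnb1 and Cacnb2, all of them calcium channel genes, and they fell between 1.38-fold and 2.06-fold. In the same comparison 12.1% of all 3696 tested genes passed in either direction and 7.14% passed as lower. No channel gene passed at the other times. In limma 1 of the 21 genes had an unadjusted p under 0.05 at 1 h. There were 4 such genes at 6 h and 9 at 24 h, while 72 and 240 h had 2 each. Of all 3696 tested genes, 319 had such an unadjusted p at 1 h and 561 at 6 h. The number was 998 at 24 h, 234 at 72 h and 452 at 240 h. By the adjusted p, 0.758% of all tested genes passed in either direction at 1 h. The share was 3.76% at 6 h, and 0.0541% both at 72 and at 240 h. In whole hippocampus, fewer cells that express a gene and less RNA per cell cannot be told apart.

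**Figure D1:**
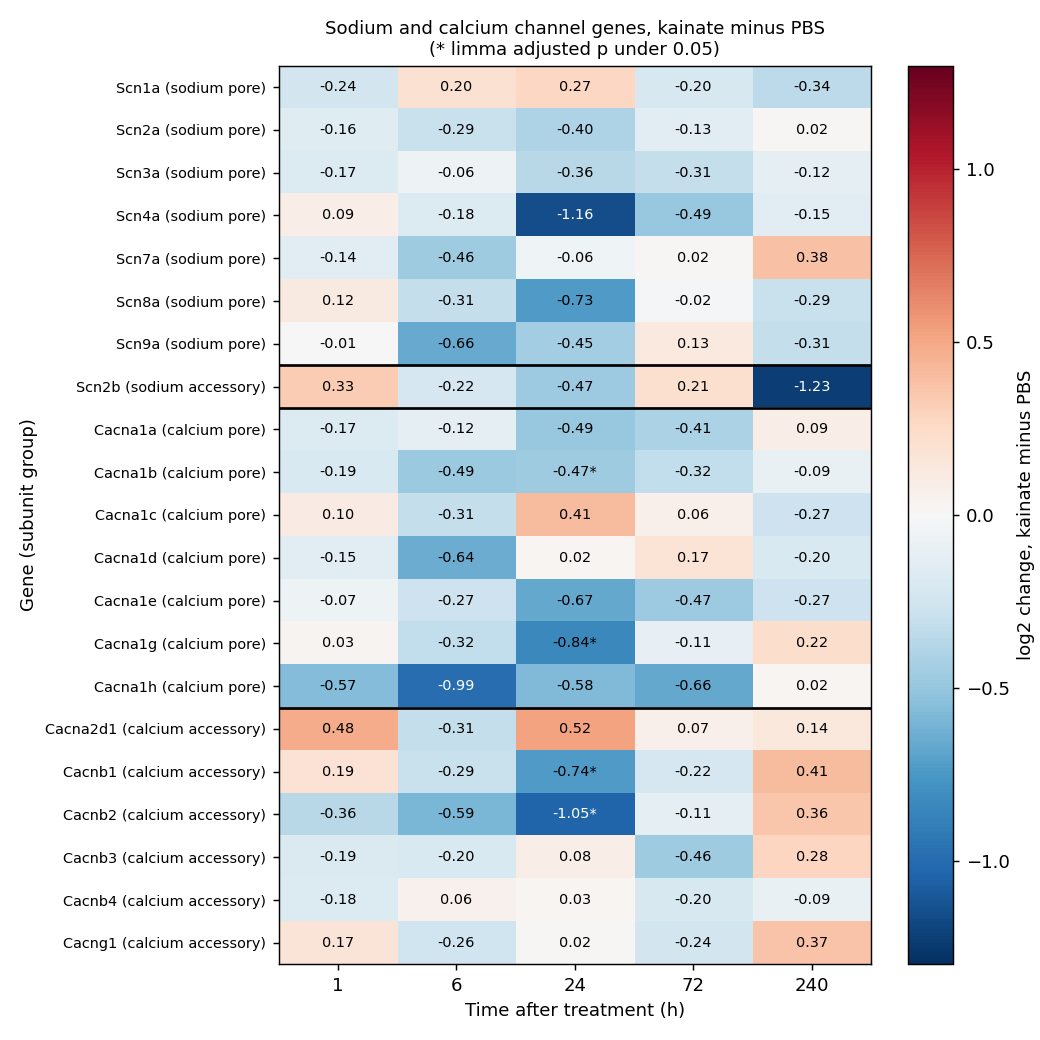
Log2 change, kainate minus PBS, of the 21 tested channel genes (rows, grouped by subunit) at 1, 6, 24, 72 and 240 h (columns), from 3 arrays per group; an asterisk marks a limma adjusted p under 0.05. The 4 asterisks all stand in the 24 h column, at Cacna1b, Cacna1g, Cacnb1 and Cacnb2.

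RefSeq start sites (build GRCr8) were available for 18 of the 24 genes, in 21 entries, and the 250 bases before each start were read. The sequences below belong to the genes that have such an entry and a probe set that passed at 24 h, so that the regions before genes with lower signal can be compared. They read 5′ to 3′ on the strand of the gene, at chr3:27944286-27944535 (minus strand), chr17:82472965-82473214 and chr17:82596542-82596791 (both plus strand) and chr7:133860977-133861226 (plus strand). Capitals mark GC boxes (GGGCGG) and half-sites of the cAMP response element (TGACG), each searched on both strands, and capitals run together where matches overlap.
Cacna1b: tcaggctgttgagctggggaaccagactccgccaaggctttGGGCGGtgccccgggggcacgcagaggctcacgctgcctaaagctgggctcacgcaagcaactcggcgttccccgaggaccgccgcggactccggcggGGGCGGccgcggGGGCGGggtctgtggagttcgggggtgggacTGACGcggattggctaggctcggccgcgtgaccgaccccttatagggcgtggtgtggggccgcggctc
Cacnb2, first start site: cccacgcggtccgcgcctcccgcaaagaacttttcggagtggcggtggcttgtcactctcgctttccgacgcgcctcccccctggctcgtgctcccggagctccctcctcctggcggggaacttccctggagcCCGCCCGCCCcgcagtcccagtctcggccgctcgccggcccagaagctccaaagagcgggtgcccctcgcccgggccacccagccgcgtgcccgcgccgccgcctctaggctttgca
Cacnb2, second start site: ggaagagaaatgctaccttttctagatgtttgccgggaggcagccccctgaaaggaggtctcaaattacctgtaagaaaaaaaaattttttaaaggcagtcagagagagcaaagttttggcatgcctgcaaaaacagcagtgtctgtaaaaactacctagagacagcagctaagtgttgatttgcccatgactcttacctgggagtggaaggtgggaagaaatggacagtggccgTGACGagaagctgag
Scn8a: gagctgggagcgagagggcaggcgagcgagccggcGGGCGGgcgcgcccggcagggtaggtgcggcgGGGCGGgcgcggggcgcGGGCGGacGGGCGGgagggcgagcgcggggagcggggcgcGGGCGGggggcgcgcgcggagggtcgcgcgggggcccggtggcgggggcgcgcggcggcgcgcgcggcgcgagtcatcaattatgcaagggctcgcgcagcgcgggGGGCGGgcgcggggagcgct

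The window of Cacna1b, the pore of the N-type calcium channel, held 3 GC boxes and 1 TGACG half-site, and its GC content was 72.0%. That of Scn8a, a sodium channel pore of the axon initial segment and the nodes of Ranvier, held 6 GC boxes at a GC content of 86.0%, with 53 CpG dinucleotides. For Cacnb2 the windows differed: the first had a GC content of 73.2%, 30 CpG and 2 overlapping GC boxes, and the second 45.6%, 3 CpG and 0 GC boxes but 1 TGACG half-site. Which of the 2 start sites each Cacnb2 probe set reports is not known here. Among all 33469 RefSeq windows of this length the median GC content was 51.2% and the median number of CpG was 5, and 15 of the 21 channel gene windows lay above that median GC content. A GC box was found in 10 of the 21 windows and in 30.5% of all windows, and a TGACG half-site in 5 of 21 and in 18.2% of all. These counts are of windows and not of genes. Cacna2d1 has several windows, some of them overlapping, and each held a GC box and lay above the median GC content. The letters GCGNGGGCG, a site of the Egr zinc finger factors, were found on either strand in 6 of 21 windows and in 4.29% of all. They can overlap a GC box. The 6 windows belong to Cacna1b, Cacna1d, Cacna2d1, Cacnb3, Scn7a and Scn8a. No probe set of Cacna1d, Cacna2d1, Cacnb3 or Scn7a passed at 24 h, and neither Cacnb2 window held these letters. These matches describe letters in a window and say nothing of binding.

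None of the 8 tested sodium channel genes passed at 24 h, with 3 at an unadjusted p under 0.05 in limma, while 7 of the 8 had log2 changes below 0, with a median of −0.43. Of all 3696 tested genes, 998 had such a p at 24 h. The median over all tested genes was −0.06, and 54.7% of them were below 0. Nearest to the threshold was Scn2a, the pore of the main sodium channel of excitatory axons. Its signal at 24 h was 459, 531 and 513 on the PBS arrays and 399, 341 and 397 on the kainate arrays. Every kainate array lay below every PBS array. The log2 change was −0.40 ± 0.13 SE, with means of 501 ± 37.5 and 379 ± 32.8 and an adjusted p of 0.0501. At 6 h Scn2a again did not overlap, with 534, 544 and 583 under PBS and 463, 458 and 434 under kainate, at a log2 change of −0.29 that did not pass.

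Scn8a was measured by 2 tested probe sets. The dimmer gave 51.2, 65.8 and 89.3 on the PBS arrays of 24 h and 33.3, 12.2 and 46.6 on the kainate arrays. The groups did not overlap, and this probe set fell 2.52-fold (log2 change −1.33 ± 0.41, adjusted p = 0.0332). The brighter probe set, which stands for the gene, gave 58.7, 69.2 and 52.6 under PBS and 85.0, 18.7 and 29.2 under kainate. Here kainate replicate 1 lay above all PBS arrays and the other two far below them, and the change of −0.73 ± 0.34 had an adjusted p of 0.165. Without kainate replicate 1 it was −1.36 with an adjusted p of 0.00297, and with both probe sets averaged on all arrays −1.03 with an adjusted p of 0.0324. Kainate replicate 1 was picked because it went against the fall. Leaving out any other array of 24 h gave no pass for the brighter probe set. Without kainate replicate 2 the dimmer probe set was at −0.77 with an adjusted p of 0.210, and over the 6 fits that each leave out 1 array of 24 h it passed in 3.

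Among the probe sets that stand for sodium channel genes, the largest log2 change at 24 h was that of Scn4a, −1.16 ± 0.45. Scn4a encodes the pore of the skeletal muscle sodium channel, and it did not pass (adjusted p = 0.0984). Its second tested probe set was at −0.31 (adjusted p = 0.723). On the brighter probe set PBS arrays read 72.8, 97.1 and 84.2, and kainate arrays 19.4, 33.4 and 83.1. Kainate replicate 3 stood within the PBS range, so the groups overlapped. Without that array Scn4a was at −1.73 and passed (adjusted p = 0.0228). The array was picked because it went against the fall, so a larger change follows from the choice. Scn4a passed in no other fit that left out 1 array of 24 h. The 5 muscle and heart markers on the array had a summed signal of 125 to 183 on the kainate arrays of 24 h. On the PBS arrays it was 122 to 154, and 0 of the 4 tested markers passed the threshold.

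Among the other sodium channel pores, Scn3a, the channel of the developing brain, was at −0.36 and its second probe set at −0.55. Scn9a, a channel of peripheral neurons near the limit of detection here, was at −0.45, with its second probe set at 0.25. Scn7a, an atypical channel that senses extracellular sodium, was at −0.06. Scn1a, the main sodium channel pore of inhibitory interneurons, was the member of this group above 0, at 0.27. Its PBS arrays read 46.1, 85.4 and 92.2 and its kainate arrays 89.3, 79.3 and 89.4, so that PBS replicate 1 alone stood apart.

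Scn2b, a beta subunit linked to the sodium channel pore, was the single sodium accessory gene on the list. Its largest change was at 240 h, where PBS arrays read 40.6, 79.0 and 35.9 and kainate arrays 4.02, 50.1 and 16.3. The groups overlapped, and 1 kainate array was below the floor of 10.95 set for all signals. It had the smallest p at 240 h of the 21 probe sets that stand for genes (log2 change −1.23 ± 0.53, adjusted p = 0.348). At 24 h Scn2b was at −0.47.

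Calcium channel genes held all 4 of the 21 genes that passed at 24 h, 2 with pore-forming and 2 with accessory subunits. The 7 calcium pore genes had a median log2 change of −0.49 and 5 of 7 were below 0. Cacna1g, a T-type channel pore that opens at low voltage and supports burst firing, had the smallest adjusted p of the list. The PBS arrays of 24 h read 177, 211 and 223 and the kainate arrays 144, 126 and 80.0. All kainate arrays were below all PBS arrays, with means of 204 ± 24.2 and 117 ± 33.0, a 1.79-fold fall (log2 change −0.84 ± 0.20, adjusted p = 0.00782). At 240 h the change was 0.22, and the effect at 24 h was lower than that at 240 h by a log2 difference of −1.07 (adjusted p = 0.0265), a test that 3.65% of all genes passed as lower.

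Cacna1b, whose N-type channel triggers transmitter release at many terminals, read 253, 280 and 268 on the PBS arrays of 24 h and 190, 184 and 207 on the kainate arrays. The 3 arrays of either group lay close together and did not overlap. Means of 267 ± 13.1 and 193 ± 12.1 gave a 1.38-fold fall (log2 change −0.47 ± 0.14, adjusted p = 0.0341). Its second probe set was at −0.21 and did not pass (adjusted p = 0.434).

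By the probe set that represents it, Cacna1b had the smallest p also at 6 and 72 h, without passing. At 6 h PBS arrays read 284, 299 and 317 and kainate arrays 231, 224 and 189 (log2 change −0.49, adjusted p = 0.0511). At 72 h they read 294, 291 and 265 under PBS and 232, 248 and 205 under kainate (log2 change −0.32, adjusted p = 0.766). The groups did not overlap at either time. At 1 h the change was −0.19 and at 240 h −0.09, both with overlapping groups. Averaged over the 5 times the change was −0.31 ± 0.06 with an adjusted p of 0.0025, and Cacna1b was the only one of the 21 genes to pass that test, which 1.52% of all genes passed as lower. This probe set passed in all 30 fits that each leave out 1 array. The second Cacna1b probe set, above the filter signal on all 30 arrays, had a mean over times of −0.13 that did not pass (adjusted p = 0.330) and was at 0.35 at 240 h. With 6 of the alternative settings, among them array weights and no filter on dim probe sets, Cacna1b passed also at 6 h.

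Cacna1a, the pore of the P/Q-type channel of presynaptic terminals, did not pass at 24 h but was lower on every kainate array. PBS arrays read 204, 250 and 314 and kainate arrays 186, 171 and 183 (log2 change −0.49, adjusted p = 0.148). All 4 of its tested probe sets were below 0, from −1.06 to −0.37, and 0 passed, while their average passed at −0.71 (adjusted p = 0.0324). At 240 h 2 of its other probe sets had the smallest p-values of all 32 tested, with log2 changes of −0.94 (adjusted p = 0.219) and −0.85 (adjusted p = 0.325). The first read 127, 124 and 65.9 under PBS and 72.4, 28.5 and 71.2 under kainate and overlapped, while the probe set that stands for the gene was at 0.09. Cacna1e, the pore of the R-type channel, read 56.1, 42.3 and 42.4 under PBS and 35.7, 40.4 and 17.5 under kainate at 24 h, also without overlap, at −0.67.

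The L-type pores Cacna1c and Cacna1d did not pass at any time. Cacna1c, which is found in heart, vessels and brain, was at 0.41 at 24 h, but PBS replicate 1 read 11.8 where the other PBS arrays read 130 and 191 and the kainate arrays 81.6, 77.6 and 110. Without that PBS array it was at −0.83 and passed as lower (adjusted p = 0.0356). The array was picked because it stood apart, and Cacna1c passed in no other fit that left out 1 array of 24 h. Its 3 tested probe sets ranged from −0.48 to 0.41. Cacna1d was at 0.02 at 24 h and at −0.64 at 6 h. Cacna1h, the other T-type pore, had the most negative change of the list at 6 h, −0.99 (adjusted p = 0.232), with PBS signals of 48.6, 44.4 and 4.57 and kainate signals of 24.4, 2.55 and 11.2, of which 1 in each group was below the floor. Without PBS replicate 3, the PBS array below the floor, Cacna1h was at −1.69 and passed (adjusted p = 0.00412). That array was picked because it stood apart, and Cacna1h passed in no other fit that left out 1 array of 6 h.

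Of the 6 calcium accessory genes 2 were lower at 24 h, and both encode beta subunits, the cytoplasmic proteins that carry the pore to the membrane. Cacnb1 read 131, 106 and 142 on the PBS arrays and 83.3, 79.4 and 64.4 on the kainate arrays. The groups did not overlap, with means of 126 ± 18.5 and 75.7 ± 9.99, a 1.67-fold fall (log2 change −0.74 ± 0.20, adjusted p = 0.0156). At 240 h the order was the other way, with 81.2, 92.5 and 106 under PBS and 96.0, 133 and 146 under kainate, groups that overlapped (log2 change 0.41, adjusted p = 0.399). The difference between the effects at 24 and 240 h was −1.15 (adjusted p = 0.0145).

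The brighter probe set of Cacnb2 fell 2.06-fold at 24 h. PBS arrays read 166, 152 and 167, and kainate arrays 135, 49.6 and 71.9. Replicate 1 of the kainate group was near the PBS arrays and the other two well below them, so that the SD was 44.2 under kainate against 8.79 under PBS (log2 change −1.05 ± 0.32, adjusted p = 0.0350). The second probe set of Cacnb2 did not pass and lay on the other side of 0: it read 57.5, 15.9 and 24.2 under PBS and 39.1, 38.9 and 56.5 under kainate (log2 change 0.66 ± 0.37, adjusted p = 0.252). With the mean of both probe sets Cacnb2 was at −0.20 with an adjusted p of 0.696.

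**Figure D2:**
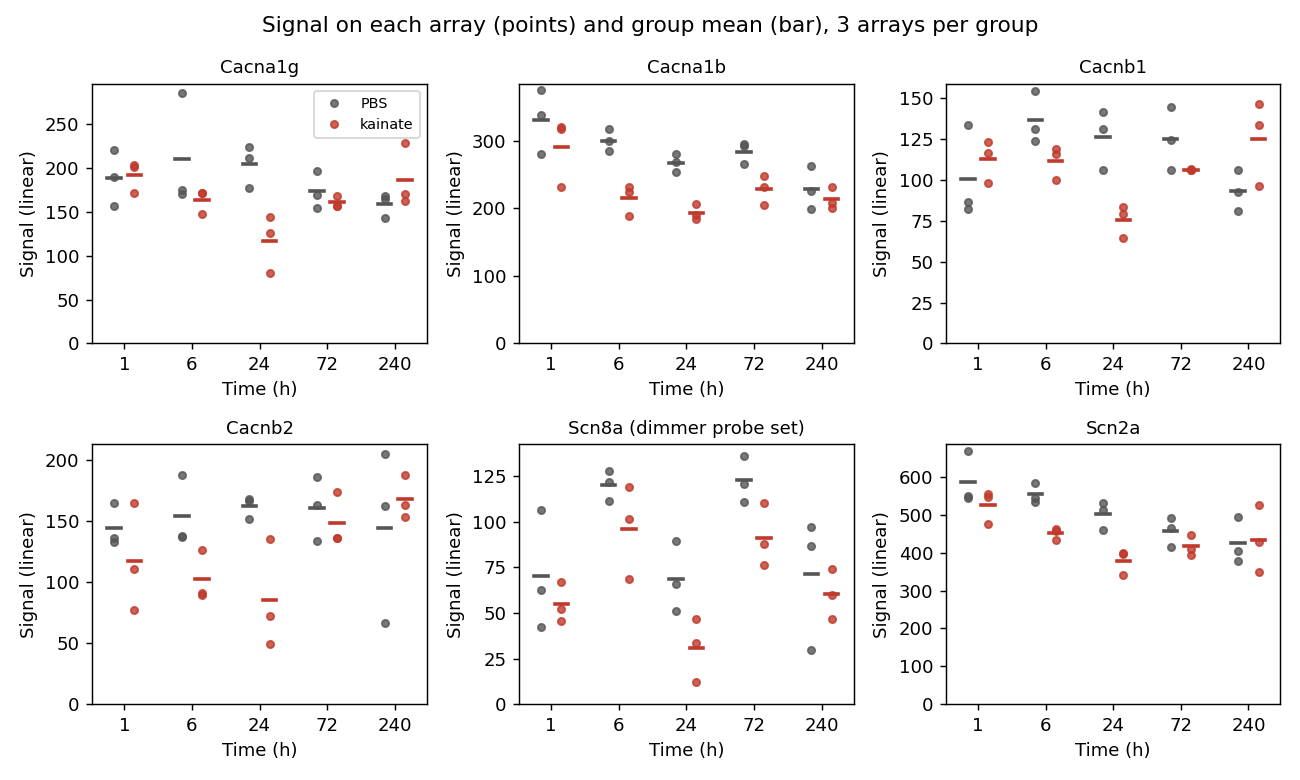
Signal of each array (points, linear axis, with the group mean as a bar) for channel genes with a probe set that passed or lay next to the threshold, PBS beside kainate at 1, 6, 24, 72 and 240 h, 3 arrays per group. At 24 h the kainate points of Cacna1g, from 80.0 to 144, all lie below the PBS points, from 177 to 223.

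The other calcium accessory genes lay near the all-gene median or above it. Cacna2d1, the alpha2delta subunit that gabapentin binds, was the single channel gene whose kainate arrays all lay above the PBS arrays at 24 h. PBS arrays read 189, 158 and 163 and kainate arrays 293, 201 and 246 (log2 change 0.52 ± 0.20, adjusted p = 0.0964). Of the 21 representative probe sets it had the smallest p at 1 h, where PBS arrays read 181, 232 and 138 and kainate arrays 304, 237 and 221 and overlapped (log2 change 0.48, adjusted p = 0.394). At 24 h the beta subunit genes Cacnb3 and Cacnb4 were at 0.08 and 0.03, and Cacng1, the gamma subunit of skeletal muscle, was at 0.02. PBS replicate 1 of 24 h was the lowest of its group for Cacnb4, at 2.71, and for Cacng1, at 27.5.

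The calls at 24 h changed when single arrays were left out, in fits that also hold fewer arrays. When each of the 6 arrays of 24 h was left out in turn, the number of channel genes that passed lay between 1 and 4. It was 1 without PBS replicate 3 (Cacna1g) or without kainate replicate 3 (Scn4a), and 2 without PBS replicate 2 or without kainate replicate 2. Cacna1g passed in 5 of 6 such fits and was at −0.59 with an adjusted p of 0.0891 without kainate replicate 3. Cacnb1 passed in 4 of 6, with −0.65 (adjusted p = 0.0746) without PBS replicate 3 and −0.62 (adjusted p = 0.0956) without kainate replicate 3. A fit of the 6 arrays of 24 h alone gave 0 channel genes, and a fit of those of 1, 24 and 240 h gave 1. Cacnb2 passed in 1 of 6, with adjusted p-values from 0.00582 to 0.174, and Cacna1b in 0 of 6, from 0.0519 to 0.0993. The log2 change of Cacna1b stayed between −0.52 and −0.43 in these fits, whichever array was left out.

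At the level of probe sets 5 of the 32 tested were lower at 24 h, the 4 above and the dimmer probe set of Scn8a, where 6.30% of all tested probe sets were lower. Of the 8 genes with more than 1 tested probe set, Cacna1a, Cacna1b, Scn3a, Scn4a and Scn8a had all of them below 0. The probe sets of Cacna1c, Cacnb2 and Scn9a lay on both sides of 0. For Cacna1b, Cacnb2 and Scn8a 1 of 2 passed.

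**Figure D3:**
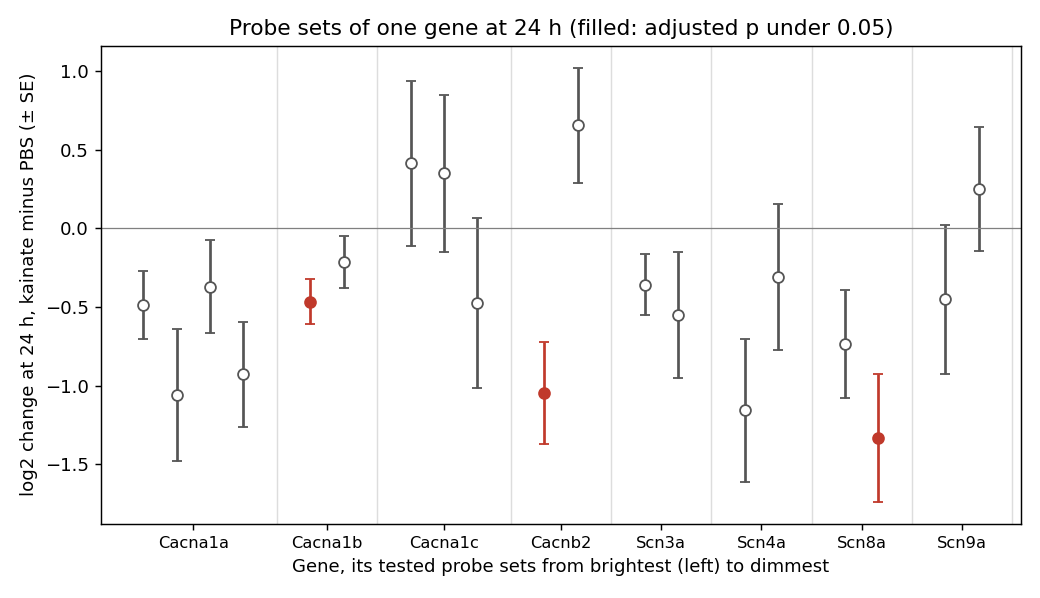
Log2 change at 24 h (kainate minus PBS, bars ± SE) of every tested probe set of the channel genes with more than 1. The Cacnb2 probe sets lie at −1.05 and 0.66, and the 4 of Cacna1a between −1.06 and −0.37.

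Pore-forming genes had a lower median log2 change than accessory genes at 24 h, −0.46 against 0.02, a difference of −0.47. The difference was −0.31 at 1 h and −0.06 at 6 h. It was 0.04 at 72 h and −0.42 at 240 h. The medians describe the listed genes and were not tested, since genes are not replicates. The numbers that passed at 24 h were 2 of 14 pore-forming and 2 of 7 accessory genes. At 24 h 11 of 14 pore-forming and 3 of 7 accessory genes were below 0. Leaving out 1 array of 24 h at a time moved the difference between −0.51 and 0.15. It was 0.15 without PBS replicate 1 and −0.27 without kainate replicate 3. Within the PBS group of 24 h, the genes lowest on PBS replicate 1 included the accessory genes Cacnb4 and Cacng1. They also included the pore genes Cacna1a, Cacna1b, Cacna1c, Cacna1g, Scn1a, Scn2a and Scn4a. Among those highest on it were Cacna2d1, Cacnb3 and Cacna1e. Its hexokinase 3 prime to 5 prime log2 ratio of 2.29 was the highest of the 6 arrays of 24 h, and its GAPDH ratio of −0.36 the lowest. The part of this array's quality in the difference was not tested. At 1 h the difference was −0.031 without PBS replicate 1, and at 240 h −0.14 without kainate replicate 1.

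**Figure D4:**
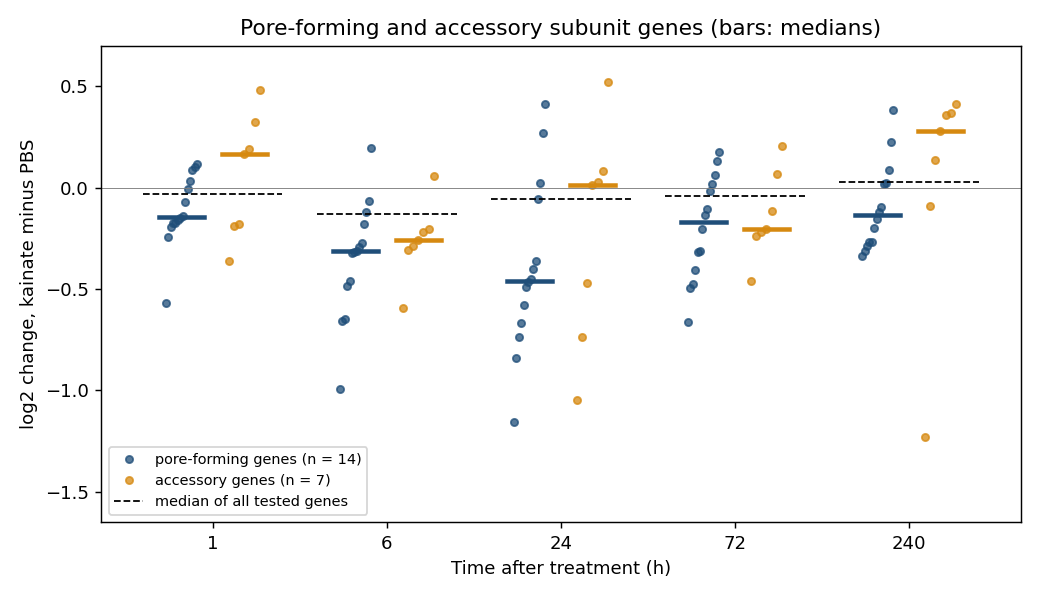
Log2 change, kainate minus PBS, of each tested channel gene (points) at each time, with the medians of the 14 pore-forming and 7 accessory genes and of all 3696 tested genes. The medians at 24 h are −0.46, 0.02 and −0.06.

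At 6 h 19 of the 21 channel genes had a log2 change below 0, among them all 7 calcium pore genes, where 65.6% of all tested genes were below 0. The median of the list was −0.29 and that of all tested genes −0.13. On the same arrays the median signal over all probe sets was 53.0 to 55.2 under kainate and 56.5 to 60.1 under PBS, without overlap. At 6 h the neuron marker sum was 13029 to 13861 on the kainate and 12149 to 12480 on the PBS arrays with 0 of 11 past the threshold, and 2 of 8 interneuron and 2 of 7 microglia and macrophage markers were higher. Of all 3696 tested genes, 106 passed as higher at 6 h. The part of the median signal and of these markers in the 6 h values was not tested. Kainate lay below PBS on every array for 5 genes, Scn2a, Scn8a, Cacna1b, Cacnb1 and Cacnb2, against 19.3% of all genes. At 24 h this held for 7 channel genes, Scn2a, Cacna1a, Cacna1b, Cacna1e, Cacna1g, Cacnb1 and Cacnb2, against 16.7%. At 72 h it held for 4, Scn3a, Cacna1b, Cacna1e and Cacna1h, against 12.7%. At 72 h 15 of 21 and at 240 h 11 of 21 channel genes were below 0, with 56.2% and 46.1% of all genes.

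Over all times together 2 of the 21 genes passed the F test for a kainate effect at any time, Cacna1b (adjusted p = 0.0161) and Cacnb1 (adjusted p = 0.0445), where 9.52% of all genes passed. The F test for a kainate effect that differs between times was passed by Cacnb1 alone (adjusted p = 0.0484), where 6.74% of all genes passed. With 1 of the 30 arrays left out at a time, Cacna1b passed the test for any effect in 30 of 30 fits. Cacnb1 passed it in 10 of 30, with adjusted p-values from 0.0161 to 0.124, the highest without kainate replicate 3 of 24 h, and the test between times in 7 of 30, from 0.0156 to 0.120.

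The markers of several cell types moved at 24 h as well. Of the neuron markers 4 of 11 were lower (Nefl at −0.46, Nefh at −0.74, Uchl1 at −0.58 and Gap43 at −0.57), the median of the list was −0.37, and its summed signal was 9949 to 10994 on the kainate arrays and 12156 to 13242 on the PBS arrays. Of the microglia and macrophage markers 3 of 7 tested were higher. The summed signal of the 9 on the array was 1070 to 1327 against 497 to 532. Of all 3696 tested genes, 183 passed as higher and 264 as lower at 24 h. The oligodendrocyte sum was 5998 to 6522 against 7414 to 7588 with 0 of 5 past the threshold, and the astrocyte sum 7218 to 8238 against 7906 to 8251 with 1 of 8 higher and 2 lower. Interneuron markers summed to 5014 to 6386 against 4709 to 5377, with Npy higher and Pvalb lower of 8. Markers of endothelium and blood summed to 3152 to 4232 against 3431 to 4387 with 1 of 8 higher and 1 lower, and those of the choroid plexus to 2342 to 5130 against 828 to 3171 with 0 of 2 past the threshold. No marker was at the floor on all 6 arrays. The mean log2 ratio of 3 prime to 5 prime signal at 24 h was 0.79 on the kainate and 0.69 on the PBS arrays for beta-actin, 0.05 and −0.09 for GAPDH, and 1.27 and 1.53 for hexokinase. PBS replicate 1 stood apart, with a hexokinase ratio of 2.29 against 1.27 and 1.04 on the other PBS arrays and a GAPDH ratio of −0.36 against 0.06 and 0.02. The part of these shifts in the channel gene results was not tested.

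Among 60 genes known as partners or regulators of these channels, 32 were tested, and at 24 h 5 were lower and 0 higher, with a median of −0.22, where 7.14% of all tested genes were lower and their median was −0.06. The largest falls were those of Camk2a, the calcium-activated kinase that phosphorylates both channel types, 3.72-fold (adjusted p = 0.000239), and of Itpr1, the calcium release channel of the endoplasmic reticulum, 2.04-fold (adjusted p = 0.000243). At 1, 6, 72 and 240 h 0 of the 32 passed in limma.

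The PBS groups differed among themselves for some channel genes, in a comparison added after the data were seen. Of the 21 genes 5 passed the F test among the 5 PBS groups, Cacna2d1, Cacna1a, Scn2b, Scn1a and Scn8a, where 17.1% of all genes passed. Scn8a had PBS means of 158 ± 21.6 and 187 ± 14.3 at 6 and 72 h. The means were 76.1 ± 22.1, 60.2 ± 8.43 and 105 ± 40.5 at 1, 24 and 240 h. Its PBS arrays of 6 and 72 h were above those of 1, 24 and 240 h by a log2 difference of 1.17 ± 0.22 (adjusted p = 0.0008). Scn2b was higher there by 1.17, Cacna1a by 0.56 and Cacna2d1 by 0.51, so that 4 of the 21 genes passed as higher and 0 as lower, where 12.4% of all genes were higher. The 2 sets of times are the ones that the first principal component separates over all genes, and what separates them was not tested.

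**Figure D5:**
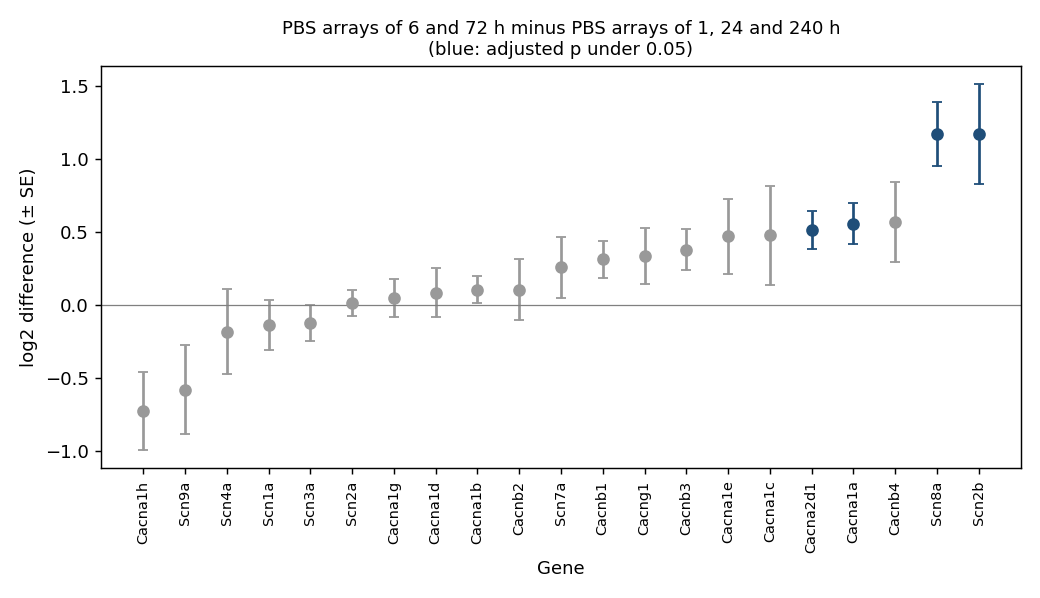
Log2 difference (± SE) of each tested channel gene between the 6 PBS arrays of 6 and 72 h and the 9 PBS arrays of 1, 24 and 240 h; blue marks a limma adjusted p under 0.05. Scn8a and Scn2b are both at 1.17, Cacna1a at 0.56 and Cacna2d1 at 0.51.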

How the data were processed

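Rat hippocampus was measured on 30 arrays, 3 in each of 10 groups of kainate or PBS at 5 times, grouped by the labels. Values are the deposited signal intensity of every probe set on each array, not logged. The software behind them is among the facts not given in the sources used here. The trimmed means (2% off each end) were 150.1 to 150.2, so the deposited arrays already shared a level. Precision is limited by the number of arrays, and there is no read depth.

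For the tests the signals were brought to exactly the same trimmed mean, values under the 20th percentile (10.95, log2 3.45) were set to it, and log2 was taken. Tested were the 6303 of 8740 probe sets that exceeded the 40th percentile, 35.2, on at least 3 arrays, without the 59 array controls. In the platform annotation 7006 probe sets carried 1 gene, 308 several and 1426 none. A current gene identifier was found for 6985, including all 43 of the channel genes. Promoter sequences are from RefSeq, build GRCr8.

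Tests used limma 3.58.1 in R 4.3.3 with group means fitted on the 30 arrays together, an intensity trend, 20 residual and 7.26 prior degrees of freedom, and Benjamini-Hochberg adjustment. Python 3.11.15, pandas 2.3.3 and matplotlib 3.10.9 drew the figures. The procedure was tested on simulated data. Every channel gene is named, and array values go to those with a probe set that passed, to the gene with the smallest p at the other times and to genes next to the threshold, without overlap or with an array that stands apart. From the partner list at most the 2 largest falls and rises that passed are named. The channel genes and gene lists were chosen with earlier results of these data known. Alternatives were the floor, the filter, quantile normalization, averaging a gene's probe sets, array weights, no intensity trend, the replicate number as a block, subsets of arrays and leaving out each array.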

Additional observations from a re-analysis of the deposited data

Results flagged for a closer look

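For Cacnb1, the beta subunit gene, the kainate effect differed between the 5 times in the limma F test (adjusted p = 0.0484). The effect at 24 h was lower than that at 240 h by a log2 difference of −1.15. For Cacna1g, a T-type pore, the difference between 24 and 240 h was −1.07.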

How the results depend on the processing

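No log2 change that passed with the main settings reversed its sign under any alternative run. Cacna1c did not pass there at 24 h, at 0.41, but passed at −0.83 without PBS replicate 1. The pore minus accessory difference, which has no test, changed sign as given below. The number of channel genes that passed at 6 h was 0, and 1 (Cacna1b) with quantile normalization, without a filter, with the stricter filter, with array weights and from the 6 and 72 h arrays by themselves. At 24 h it was 4, but 1 with the arrays of 1, 24 and 240 h alone and 0 with the 6 arrays of 24 h alone, fits with fewer samples. Counting a gene when any of its tested probe sets passed, a setting chosen after seeing the data, gave 5. Without a filter Scn10a, below it otherwise, was called higher at 24 h (0.69, adjusted p = 0.0351). The Scn10a signal was at or below the floor on 22 of the 30 arrays and reached at most 23.2. The number with any effect was 2, and 1 with quantile normalization. The number that differed between times was 1, and 0 with quantile normalization, with the floor at the 30th percentile and with array weights. For the mean over times it was 1, and 2 with the 30th percentile floor, with averaged probe sets and with array weights. The cause was not tested. The pore minus accessory difference was −0.15 at 24 h with the 30th percentile floor, −0.18 at 240 h with averaged probe sets and −0.067 at 72 h with array weights. Cacna1g passed at 24 h in 10 of 11 alternatives other than leaving out an array, Cacnb1 in 9, Cacna1b in 7 and Cacnb2 in 5. Scn2a, at 0.0501, passed in 5 of 11.

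With 1 array left out at a time the counts ran from 0 to 1 (Cacna1h) at 6 h, 1 to 4 at 24 h, 1 to 4 for any effect, 0 to 1 between times and 1 to 2 for the mean. The pore minus accessory difference ran from −0.29 to −0.031 at 1 h, −0.51 to 0.15 at 24 h, −0.081 to 0.034 at 72 h and −0.49 to −0.14 at 240 h.

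The labels share replicate numbers, but do not say that these pair the samples. Same-numbered arrays correlated in their deviations between −0.073 and 0.17, over 0.1 in 3 of 15 cases, and best with their own number in 7 of 15. With 3 arrays per group these values cannot decide whether the samples are paired. With the replicate block 1 gene passed at 6 h (Cacna1b), 1 for any effect and 0 between times, and Cacna2d1 passed as higher at 24 h (0.52, adjusted p = 0.0483).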

Other observations

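The sodium channel genes lie partly side by side in the RefSeq order of protein-coding genes. On chromosome 3 Scn3a is next to Scn2a, and Scn1a is followed by Scn9a and then Scn7a. At 24 h the neighbours Scn3a and Scn2a were at log2 changes of −0.36 and −0.40, and Scn1a, Scn9a and Scn7a at 0.27, −0.45 and −0.06, with none of the 5 past the limma threshold.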
